A study of Mus musculus with 12 samples.

Results

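The 51 genes of DNA replication and S phase described here were followed in sorted germinal center B cells of the spleen. They are genes whose products license origins, unwind and copy DNA, supply nucleotides and rebuild chromatin behind the fork. The members were chosen by symbol from a written list, drawn up with earlier results of these data known, and all 51 were among the 12212 symbols of the deposited files. All 51 passed the filter on low counts, and none was at 0 in any library. Each of the 12 libraries held 1000 sorted cells from the spleens of NZBWF1/J animals, an F1 hybrid used as a mouse model of lupus.

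The libraries formed 4 groups of 3. Light zone treated and dark zone treated libraries came from mice given 2 agents that block T cell costimulation: CTLA4-Ig (6 doses of 200 ug), a decoy receptor for CD80 and CD86, and anti-CD40L (6 doses of 250 ug), which blocks the T cell signal to CD40 on B cells. Dosing ran over 2 weeks and started at 18 weeks of age. Light zone control and dark zone control libraries came from untreated mice, whose age the labels do not give. All groups shared the strain and the organ, and differed in zone, treatment or both. The labels do not say whether libraries came from separate mice or whether a number marks the same mouse in both zones, so the p-values speak only of the spread among libraries, which may be technical. In bulk samples, fewer cells in S phase and less of a transcript per cell cannot be told apart.

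Replication begins when the origin recognition complex, Cdc6 and Cdt1 load the Mcm2-7 ring onto DNA before S phase. The kinase Cdc7 with its partner Dbf4, and cyclin E with its kinase, then allow Cdc45 and the GINS complex to join the ring as the active helicase. Clamp, clamp loader, polymerases and ligase copy the strands, and many of these genes are textbook targets of E2F transcription factors. Germinal center B cells are among the fastest dividing mammalian cells. Their cycle is mostly run in the dark zone, while light zone cells that receive T cell help restart it.

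Because E2F binding near the start site is the textbook control of this set, the 250 bases before the start were searched for 4 forms of the E2F site on both strands, letting matches overlap. The first form searched was TTCGCGC. Another form searched alongside was TTGGCGC. Searches also covered the form TTCCCGC. The last form searched was TTGCCGC. RefSeq promoters on GRCm38.p6 matched 43 of the 51 members by symbol. A match was present in 19 of them (44.2%), against 16.01% of the 9389 tested genes with a promoter and 9.01% of all 27025 genes in the table. CCAAT was present in 60.5% of the members, against 40.9% of tested genes and 37.5% of all genes. The CHR element TTTGAA, known from genes of late cell cycle, was present in 16.3% of the members, against 13.02% and 18.3%. A match is a run of letters and says nothing of binding, and a gene counted if any of its listed starts had one. No promoter was in the table for Mcm4, Gins1, Gins2, Gins4, Ccne2, Rfc2, Prim2 and Pole.

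The promoters of 5 members are printed 5′ to 3′, with E2F matches in capitals. Cdc6 and Lig1 had the smallest unadjusted p-values in the dark zone treatment comparison, and Mcm6, Mcm5 and Pola1 were the members with 3 or more matches, picked after the search. Cdc6 has a match 138 bases before the start. Mcm6 has 4 overlapping in 2 pairs, at 109 and 106 and at 46 and 43 bases before the start. Mcm5 has matches at 164, 152 and 149 bases and Pola1 at 169, 138 and 121 bases before the start. In Lig1 these letters are not in the window. Each window lies before 1 listed start, the one nearest a GENCODE start of the gene. The annotated genes of Cdc6 and Lig1 begin further upstream, at 98907801 and 13277283, so these 2 windows lie within them.
Cdc6 (chr11:98907901-98908150, plus strand): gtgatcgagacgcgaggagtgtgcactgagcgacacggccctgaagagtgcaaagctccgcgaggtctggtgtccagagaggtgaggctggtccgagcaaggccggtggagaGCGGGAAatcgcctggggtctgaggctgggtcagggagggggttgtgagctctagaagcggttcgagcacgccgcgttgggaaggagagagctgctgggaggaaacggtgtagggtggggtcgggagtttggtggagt
Mcm6 (chr1:128359706-128359955, minus strand): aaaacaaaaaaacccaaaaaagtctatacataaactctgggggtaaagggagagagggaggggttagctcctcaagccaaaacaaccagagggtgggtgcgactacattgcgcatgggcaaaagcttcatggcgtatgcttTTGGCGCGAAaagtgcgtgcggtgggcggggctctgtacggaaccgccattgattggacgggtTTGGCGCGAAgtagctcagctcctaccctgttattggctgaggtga
Mcm5 (chr8:75109259-75109508, plus strand): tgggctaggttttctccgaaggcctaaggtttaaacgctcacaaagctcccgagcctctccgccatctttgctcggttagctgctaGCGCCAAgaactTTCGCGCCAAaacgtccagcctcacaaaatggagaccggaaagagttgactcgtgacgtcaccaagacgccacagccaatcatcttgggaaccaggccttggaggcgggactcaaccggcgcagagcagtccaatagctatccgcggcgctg
Pola1 (chrX:93632156-93632405, minus strand): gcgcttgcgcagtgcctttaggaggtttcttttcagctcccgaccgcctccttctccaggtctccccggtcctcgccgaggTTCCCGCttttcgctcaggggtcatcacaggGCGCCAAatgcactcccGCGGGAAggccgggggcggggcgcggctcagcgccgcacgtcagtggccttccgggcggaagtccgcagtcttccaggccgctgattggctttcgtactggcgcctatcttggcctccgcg
Lig1 (chr7:13278576-13278825, plus strand): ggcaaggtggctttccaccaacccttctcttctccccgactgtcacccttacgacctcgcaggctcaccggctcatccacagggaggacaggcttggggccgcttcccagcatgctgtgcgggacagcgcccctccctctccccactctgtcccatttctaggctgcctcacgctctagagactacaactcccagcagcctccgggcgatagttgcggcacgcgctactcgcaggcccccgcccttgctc

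Replication genes were detected in all 4 groups, at levels that differed widely between members. Scaled per kilobase of the longest GENCODE M21 transcript, mean levels over the 12 libraries were led by Rpa3, the small subunit of the single-strand binding protein RPA, with 658 CPM per kb (CPM are counts scaled to a common library size with TMM factors). Pcna, the sliding clamp, followed with 599, Slbp, which binds histone mRNA, with 507, Rfc4, a clamp loader subunit, with 341, Dut, which removes dUTP, with 218, and Rrm2, the regulated subunit of ribonucleotide reductase, with 210 CPM per kb. At the low end stood Gins3 with 4.71, Pole, the catalytic subunit of the leading strand polymerase, with 4.56, Chaf1a, of the histone chaperone CAF-1, with 4.30, and Orc1, the largest origin recognition subunit, with 3.74 CPM per kb. The transcripts of the 6 highest members were 670 to 2193 bases long, and those of Mcm10, Gins3, Pole, Chaf1a and Orc1 were 2519 to 7163 bases.

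Subunits that act in fixed numbers were measured at unequal levels in most complexes. Within the Mcm2-7 ring the mean per-length levels in dark zone control libraries lay between 27.4 CPM per kb for Mcm6 and 41.8 CPM per kb for Mcm4. In light zone control libraries they lay between 16.7 (Mcm6) and 42.8 CPM per kb (Mcm4). Within RPA, Rpa3 had 969, Rpa2 75.6 and Rpa1 17.5 CPM per kb in dark zone control libraries. Within the clamp loader, Rfc4 had 354, Rfc3 226, Rfc2 62.2, Rfc5 21.6 and Rfc1 21.4 CPM per kb there. In GINS, Gins4 had 58.4, Gins1 50.4, Gins2 25.8 and Gins3 6.97 CPM per kb. Per-length levels use 1 transcript per gene, and the transcripts in these cells were not read from the files.

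The kits keep no strand, and exons of 14 members share bases with another coding gene. The longest overlaps were Chaf1a with Ubxn6 (4648 bases), Gins2 with Gse1 (2758), Orc2 with Nif3l1 (1150), Rfc2 with Lat2 (952), Ccne2 with Ints8 (609) and Rfc5 with Wsb2 (499). Lig1 shares 247 bases with Zswim9 and Fen1 130 bases with Tmem258. Reads of these stretches can come from either gene. Pcna and Tyms also have annotated pseudogenes, so their counts are uncertain to that extent.

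Totals were 16032746 to 26837714 counts per library, at which 3 counts equal 0.112 to 0.187 CPM, a floor for counting error only. Among the treated libraries 3 stood apart from the other 9: replicate 2 of the light zone and replicates 1 and 2 of the dark zone. Their scores on principal component 1 (30.3% of the variance) were 146.6 to 165.7, and those of the other 9 were -102.9 to 20.4. Their TMM factors were 1.35 to 1.44, against 0.815 to 0.988. Light zone treated replicate 3 lay at -172.9 on the second component. Where leaving out the 3 libraries moved a treated difference given here by over 1.5 times or turned its sign, the value without them follows it. The 11 measured T cell markers summed to 39.5 to 72.1 CPM in light zone treated and 32.6 to 44.4 in light zone control libraries, and to 15.7 to 31.0 CPM in dark zone treated and 14.0 to 19.0 in dark zone control libraries. Cd8a was at 0 in all control libraries of both zones, and Cd4 in those of the light zone. The 16 myeloid markers summed to 645.9 to 789.4 and 710.4 to 898.6 CPM in light zone treated and control libraries, and to 399.4 to 939.2 and 574.9 to 1158 CPM in dark zone treated and control libraries. Most of that sum was Cst3, at 267.1 to 1134 CPM, and it hides the other myeloid genes. Cst3 itself was lower in each of the 3 libraries that stood apart (373.9, 368.9 and 267.1 CPM) than in any of the other 9 (549.9 to 1134). Against this, 7 of the 16 (Lyz2, C1qa, C1qb, C1qc, Csf1r, Vcam1 and S100a8) were higher in each of the 3 libraries than in any of the other 9. Of these, S100a8 had only 0.0776 CPM in replicate 2 of the treated light zone, no more than the floor. C1qb had 35.8 CPM in replicate 2 of the treated light zone, and 13.3 and 11.1 CPM in replicates 1 and 2 of the treated dark zone, against 0 to 0.0585 CPM in the other 9. Of the T cell markers 4 of 11 (Cd3e, Cd4, Cd8a and Cd8b1) were likewise highest in those 3 libraries. The 9 plasma cell markers summed to 1996 to 3325 CPM in the 3 libraries, against 8229 to 13670 in the other 9. Only 2 of the 9 genes were lower in each of the 3 than in any other library. These were Jchain, at 1109 to 2154 CPM against 6206 to 11320, and Mzb1, at 542.4 to 721.7 CPM against 1543 to 2262. Jchain made up most of the sum. The other plasma cell genes overlapped, as Xbp1 did with 158.2, 132.8 and 237.8 CPM in the 3 libraries against 28.9 to 225.0. The 7 erythroid markers summed to 1435 CPM in dark zone control replicate 1, against 8.05 to 302.0 CPM elsewhere. The counts of markers above or below the other 9 libraries were not set against a share over all tested genes. In each of the 3 libraries 24.2% to 27.1% of all tested genes lay above all 6 controls, and 22.6% to 23.5% lay below. The part of other cells in the member differences below was not tested.

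In the 3 libraries that stood apart, members of the same role split to both sides. Mcm5, a subunit of the ring, had 363.4 CPM in replicate 2 of the light zone treated group and 375.7 and 445.3 CPM in replicates 1 and 2 of the dark zone treated group, against 40.0 to 143.3 CPM in the other 9 libraries. Fen1, the flap endonuclease of Okazaki fragments, had 215.3, 205.5 and 302.7 CPM in the same libraries, against 0.517 to 103.1. Rpa3 went the other way, with 40.2, 62.7 and 93.9 CPM against 477.7 to 854.6. So did Orc6, an origin recognition subunit, with 52.1, 65.6 and 81.9 CPM against 208.5 to 375.5, and Pcna, with 310.7, 311.7 and 441.9 CPM against 864.9 to 1456. Gins1, of the helicase role like Mcm5, was low, with 16.03, 14.0 and 20.2 CPM against 30.4 to 99.1. Prim1, of the same role as Fen1, was low as well, with 51.7, 59.1 and 79.9 CPM against 130.3 to 474.9. The share of all genes that set these 3 libraries apart from the other 9 was not taken. The rank order of the 51 members was nearly the same in these 3 libraries (Spearman rho 0.962 to 0.971 between them, across genes that are not independent replicates).

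The deviation of a member from the control libraries went with the GC content of its longest transcript in these 3 libraries, with Spearman rho of 0.606, 0.616 and 0.639 across the 51 members. In the other 9 libraries rho was between -0.245 and 0.287. With transcript length rho was 0.446 to 0.535 in the 3 libraries, against -0.316 to 0.188 in the other 9. Over the 11288 genes with a transcript the rho with GC content was 0.358 to 0.375 in the 3 libraries. These are descriptions across genes of single libraries, and their part in the treatment differences was not tested.

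**Figure D1:**
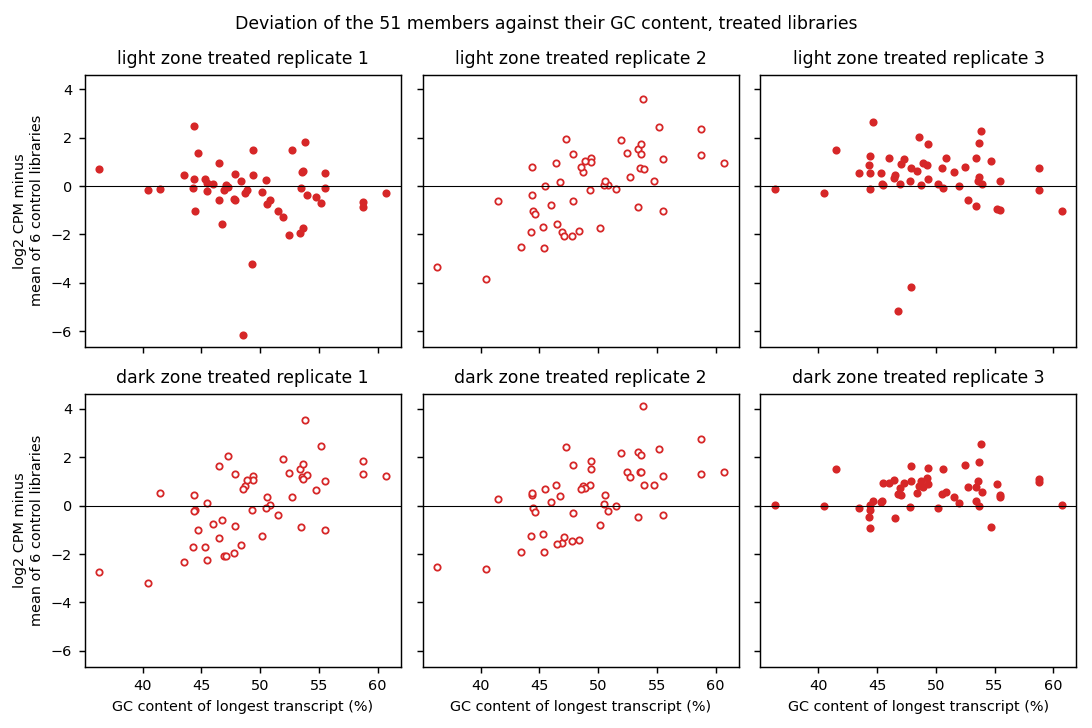
Log2 CPM of each member minus the mean of the 6 control libraries (y axis) against GC content of its longest transcript in percent (x axis), 1 panel per treated library; each point is 1 of the 51 genes, and open points mark the 3 libraries that stood apart. In those 3 panels the points run from low left to high right (rho 0.606 to 0.639); in the other 3 treated libraries rho was -0.245, -0.129 and 0.287.

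Whether treated libraries held more replication transcripts in sum depended on the scaling. After TMM scaling the 51 members summed to 8193, 5568 and 11520 CPM in light zone treated libraries, against 8030, 8097 and 8529 CPM in light zone control libraries. They summed to 6034, 7591 and 10400 CPM in dark zone treated libraries, against 7958, 9010 and 7826 CPM in dark zone control libraries. Both treated groups thus lay on both sides of their controls. As a share of all counts the members took 0.722%, 0.802% and 1.02% of light zone treated libraries, against 0.709%, 0.698% and 0.757% of light zone control libraries. They took 0.855%, 1.03% and 0.979% of dark zone treated libraries, against 0.724%, 0.734% and 0.773% of dark zone control libraries, and on this scale the dark zone groups did not overlap. The highest sums after TMM scaling were in light zone treated replicate 3 and dark zone treated replicate 3, neither of which is among the 3 libraries that stood apart.

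**Figure D2:**
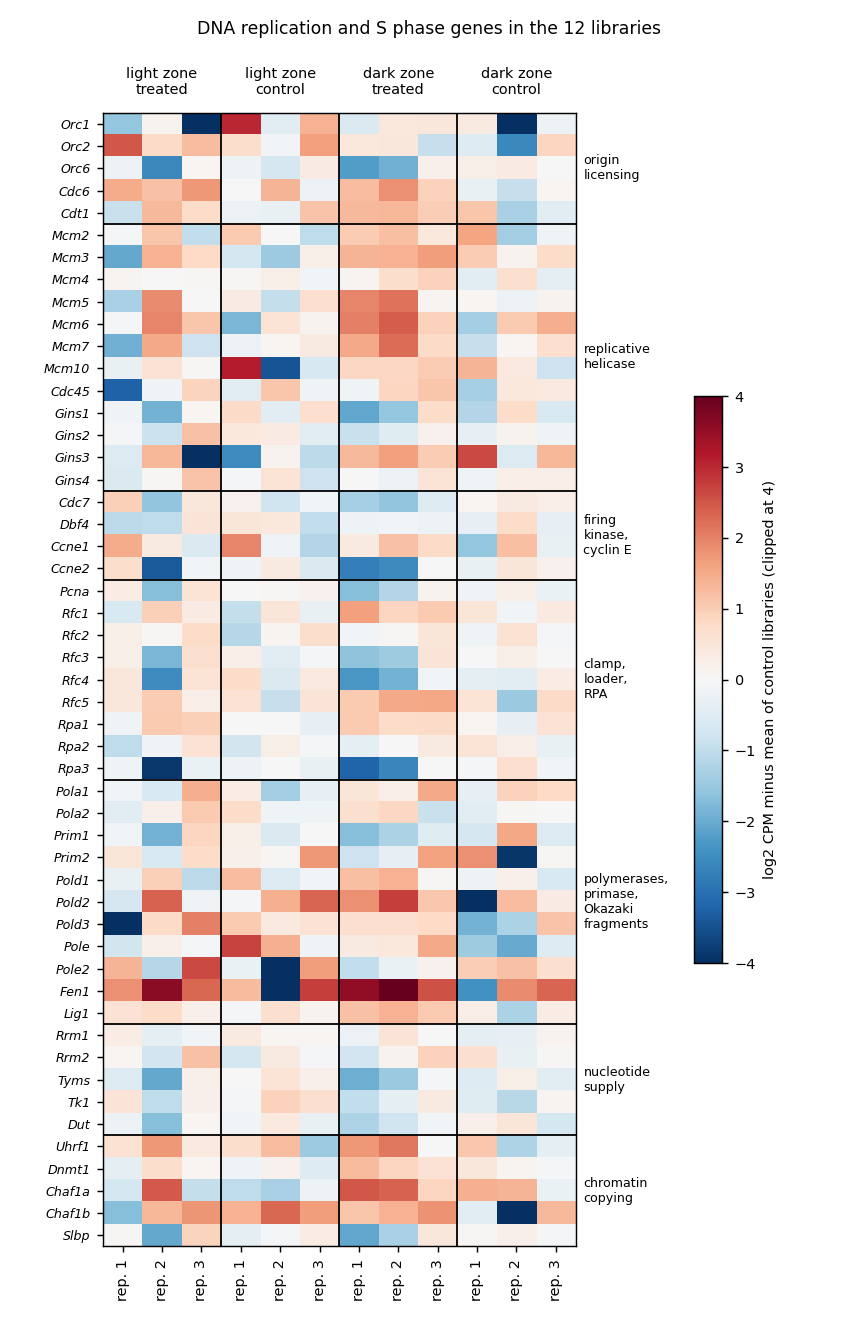
Log2 CPM of the 51 members (rows, by role) in the 12 libraries (columns, 3 per group) minus the mean of the 6 control libraries, the library itself left out where it is a control; red is higher, blue lower, clipped at 4. The columns of the 3 libraries that stood apart (replicate 2 of light zone treated, replicates 1 and 2 of dark zone treated) share a pattern, with Rpa3, Rfc4, Ccne2 and Pcna low and Mcm5, Mcm6, Fen1 and Chaf1a high.

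Dark zone cells of treated and untreated mice were compared first, since the dark zone is where these cells mostly divide. No member passed the adjusted threshold. By edgeR's quasi-likelihood test 0 of 12081 genes, and so 0 of the 51 members, passed (background 0.0%). At an unadjusted p under 0.05, 5 members were higher (Lig1, Cdc6, Pole, Rfc5 and Dnmt1), against a background of 4.87% of all tested genes, and 0 were lower, against 4.03%. The median log2 difference of the members was 0.44 with 35 higher and 16 lower, and that of all tested genes 0.06. Without the 3 libraries that stood apart these medians were 0.43 and -0.11. Without the 3 libraries that stood apart, which leaves 1 treated library in this zone, assumed to vary like the other groups, 2 members were higher at an unadjusted p under 0.05, against 1.52%, and 0 were lower, against 2.38%. Limma-voom with quality weights called 11 members higher (background 9.86%) and 10 lower (background 15.6%), and DESeq2 called 0. Simulated counts for this comparison, with 50 changed genes per fold, gave 0 calls at 2-fold and at 4-fold, 4 at 8-fold and 18 at 16-fold. The changed genes were drawn from all but the lowest genes, and the members spread less than all genes. Their median log2 SD was 0.51 against 0.73 in dark zone control and 0.63 against 0.74 in dark zone treated libraries. Each gene was drawn independently, so shifts shared by genes in the same libraries were not simulated. The calls therefore give no limit of detection for the members. The difference with the largest size among members was 2.29 on the log2 scale (Fen1; 1.32 without the 3 libraries that stood apart).

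The members with the smallest p-values in the dark zone work in licensing and strand joining. Cdc6, the ATPase that loads the ring, had 48.9, 74.6 and 39.3 CPM in dark zone treated libraries, against 17.5, 12.2 and 21.8 CPM in dark zone control libraries. Every treated library was above every control, with a log2 difference of 1.66 (SE 0.50, edgeR adjusted p = 0.528). Lig1, the ligase that seals Okazaki fragments, had 203.2, 236.1 and 182.5 CPM in treated libraries, against 103.8, 43.2 and 106.0 CPM in control libraries. These groups did not overlap either, and the log2 difference was 1.30 (SE 0.38, edgeR adjusted p = 0.528). Both values stayed positive without the 3 libraries that stood apart, at 1.21 for Cdc6 and 1.13 for Lig1.

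Pole had 28.3, 30.2 and 63.3 CPM in dark zone treated libraries, against 9.73, 6.93 and 16.5 CPM in dark zone control libraries, a log2 difference of 1.88 (SE 0.67, edgeR adjusted p = 0.528). The groups did not overlap. Rfc5, a clamp loader subunit, had 110.9, 154.7 and 158.3 CPM against 74.1, 22.8 and 84.2 CPM, a log2 difference of 1.23 (SE 0.52). Dnmt1, which copies DNA methylation at the fork, had 321.4, 238.3 and 195.5 CPM against 171.6, 141.3 and 128.0 CPM, a log2 difference of 0.78 (SE 0.35). The Dnmt1 difference was 0.43 without the 3 libraries that stood apart and 0.31 with a term for them, and that of Rfc5 was 1.41 without them. In both genes all treated libraries lay above all controls, and the Rfc5 libraries differed more among the controls than among the treated.

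Of the dark zone groups, 14 of the 51 members had treated libraries all above the controls (background 12.5%) and 2 had them all below (background 11.2%). The 14 were Cdc6 and Cdt1 of licensing, Mcm3, Mcm5 and Mcm7 of the ring, Rfc1, Rfc5 and Rpa1 at the clamp and on single strands, Pold2, Pole, Fen1 and Lig1 of strand synthesis, and Dnmt1 and Chaf1b of chromatin copying. The 2 below were Cdc7 and Pole2, the second subunit of the leading strand polymerase. Cdc7 had 17.2, 14.3 and 30.4 CPM in treated libraries, against 45.6, 53.2 and 50.4 CPM in control libraries, a log2 difference of -1.27 (SE 0.60, edgeR adjusted p = 0.528). Cdc7 was thus low in all 3 treated libraries, with the values of replicates 1 and 2 lower than that of replicate 3. Its difference was -0.70 without the 3 libraries that stood apart and -0.23 with a term for them. Of the dark zone treated libraries only replicate 3 is then left, and it lay above all 3 dark zone controls in 26 members (51%; 26.2% of all tested genes) and below them in 3 (5.88%; 24.4%).

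Prim1, Rpa3 and Orc6 were low in dark zone treated replicates 1 and 2 and not in replicate 3. Prim1, the catalytic primase subunit, had 59.1, 79.9 and 139.1 CPM in dark zone treated libraries, against 130.3, 474.9 and 141.8 CPM in dark zone control libraries (log2 difference -1.43, SE 0.70). Rpa3 had 62.7, 93.9 and 570.5 CPM against 550.7, 854.6 and 542.0 CPM (log2 difference -1.42, SE 0.92). Orc6 had 65.6, 81.9 and 351.7 CPM against 350.7, 373.3 and 306.8 CPM (log2 difference -1.05, SE 0.72). In replicate 3 each of these 3 genes lay within the range of the controls. Without the 3 libraries that stood apart the difference was -0.83 for Prim1, -0.17 for Rpa3 and 0.05 for Orc6. With a term for those libraries it was -0.35 for Prim1, 0.08 for Rpa3, 0.12 for Orc6 and 0.10 for Dut.

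Most leading members of the roles split the same way. Pcna had 311.7, 441.9 and 1099 CPM in dark zone treated libraries, against 920.2, 1153 and 864.9 CPM in control libraries. Slbp had 244.6, 420.9 and 1407 CPM against 1061, 1161 and 1003 CPM, and Ccne2, a cyclin E, 17.4, 20.1 and 117.8 CPM against 99.5, 156.2 and 130.8 CPM. Dut had 208.7, 285.9 and 457.7 CPM against 557.4, 656.3 and 330.3 CPM. Replicates 1 and 2 were below all controls in these 4 genes, while replicate 3 was within or above their range. Mcm4, the ring subunit with the highest level, had 158.7, 240.7 and 283.4 CPM against 114.0, 216.2 and 119.5 CPM, and Rrm2 had 240.1, 450.6 and 774.0 CPM against 584.1, 343.8 and 413.6 CPM. For both the groups overlapped.

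Dark zone treated replicate 3, which did not stand apart, had 18 members above all 6 control libraries of both zones and 1 below. The background over all tested genes in that library was 16.1% above and 15% below, and the members' shares were 35.3% and 1.96%. In replicates 1 and 2 of that group the members split to both sides, with 16 above and 15 below (background 25% and 23%) and 19 above and 13 below (background 24.2% and 22.6%). As single libraries these were not tested.

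**Figure D3:**
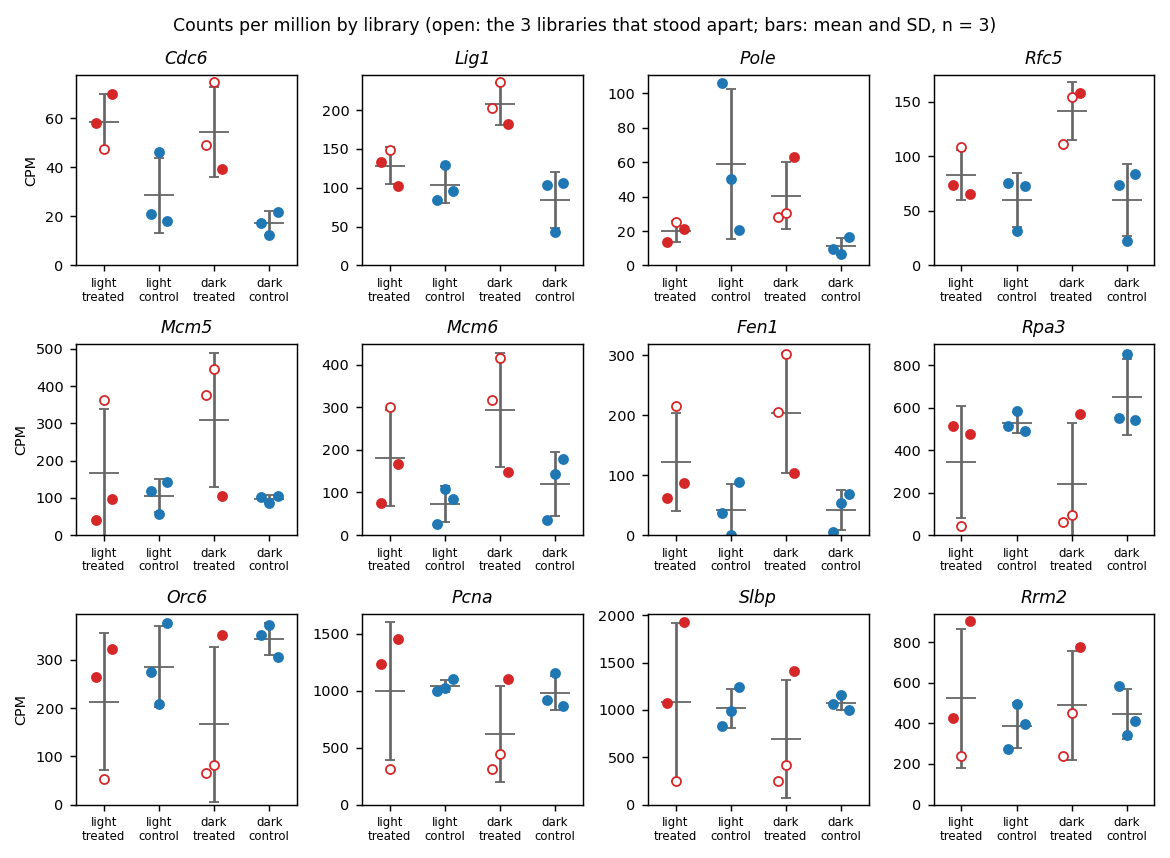
CPM after TMM scaling (y axis, from 0) of 12 members in the 3 libraries of each group (x axis), with mean and SD (n = 3); red is treated, blue control, and open points mark the 3 libraries that stood apart. Cdc6 is 39.3 to 74.6 CPM in dark zone treated against 12.2 to 21.8 CPM in dark zone control libraries, while the open points are the lowest of all 12 libraries for Rpa3, Orc6, Pcna and Slbp.

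In the light zone, where T cell help is received, 0 of the 51 members passed the adjusted threshold by edgeR (background 0.0%), DESeq2 or limma-voom. No member was higher at an unadjusted p under 0.05 (background 5.83%, or 704 genes), and Pole alone, 1 of 51, was lower (background 1.53%). Without the 3 libraries that stood apart the counts were also 0 higher (background 3.46%) and 1 lower (background 3.78%). The median log2 difference of the members was 0.10 with 32 higher and 19 lower, equal to the median of 0.10 over all tested genes. In a fit of the other 9 libraries, these medians were 0.11 and -0.04. Treated libraries lay all above the controls in 1 member, Cdc6 (background 5.82%), and all below in 0 (background 5.49%). With replicate 2 left out the remaining treated libraries lay all above the controls in 4 members (7.84%; 11.0% of all tested genes) and all below in 3 (5.88%; 11.9%). The spread among light zone treated libraries was the widest of the 4 groups, with a median SD of 1.03 on the log2 scale over the members, against 0.57 in light zone control, 0.63 in dark zone treated and 0.51 in dark zone control libraries. Over all tested genes it was likewise widest there, at 1.19, against 0.77, 0.74 and 0.73 in the same order, so this was not particular to the members.

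Cdc6 had 58.0, 47.2 and 69.9 CPM in light zone treated libraries, against 21.1, 46.2 and 18.2 CPM in light zone control libraries. The lowest treated library stood just above the highest control, and the log2 difference was 1.03 (SE 0.49, edgeR adjusted p = 0.683). Rpa1, the large subunit of RPA, had 73.2, 168.8 and 156.5 CPM against 81.2, 81.8 and 67.3 CPM, a log2 difference of 0.79 (SE 0.37, edgeR adjusted p = 0.677). Treated replicates 2 and 3 were above all controls, and replicate 1 was within their range. Mcm6 had 74.6, 300.2 and 166.9 CPM against 26.8, 107.0 and 84.6 CPM (log2 difference 1.31, SE 0.73), and Mcm3 18.7, 201.8 and 134.9 CPM against 51.5, 33.6 and 88.8 CPM (log2 difference 1.03, SE 0.67). In both ring subunits replicates 2 and 3 were above all controls and replicate 1 was not. With the 3 libraries that stood apart left out, the difference was 0.74 for Mcm6 and 0.41 for Mcm3.

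Chaf1a rested on a single library. It had 6.55, 59.6 and 5.52 CPM in light zone treated libraries, against 6.02, 5.05 and 9.59 CPM in light zone control libraries. The log2 difference was 1.79 (SE 0.94), and -0.18 without the 3 libraries that stood apart, which in this zone leaves out replicate 2. Its exons share 4648 bases with Ubxn6.

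Pole had the smallest p-value among members with lower means in the light zone. It had 13.4, 25.4 and 21.0 CPM, against 106.0, 50.4 and 20.5 CPM in light zone control libraries, a log2 difference of -1.56 (SE 0.66, edgeR adjusted p = 0.674). The groups overlapped, because control replicate 3 lay inside the treated range. Orc1 had 2.87, 9.52 and 0.155 CPM against 49.0, 6.71 and 19.2 CPM, a log2 difference of -2.57 (SE 1.34; -4.03 without the 3 libraries that stood apart). Control replicate 1 was the highest and treated replicate 3 the lowest of the 6 libraries, and the groups overlapped.

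Of the 19 members with lower values in the light zone, the next by p-value were Tyms, Mcm10 and Gins1. Tyms, which makes thymidylate, had 172.3, 60.9 and 293.3 CPM in light zone treated libraries, against 251.3, 343.8 and 282.2 CPM in light zone control libraries (log2 difference -0.74, SE 0.59). Mcm10, which helps to activate the helicase, had 12.1, 22.3 and 15.5 CPM against 92.03, 1.95 and 10.4 CPM (log2 difference -1.06, SE 1.06). It turned to 1.43 without control replicate 1. Gins1 had 53.7, 16.03 and 62.7 CPM against 93.2, 46.3 and 87.6 CPM (log2 difference -0.78, SE 0.80). None of these 3 separated the groups. When the libraries that stood apart were omitted, the difference was -0.32 for Tyms and -0.37 for Gins1.

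The most abundant members did not separate the light zone groups. Pcna had 1233, 310.7 and 1456 CPM in light zone treated libraries, against 997.0, 1027 and 1101 CPM in light zone control libraries (log2 difference -0.06, SE 0.56; 0.38 without the 3 libraries that stood apart). Slbp had 1076, 251.3 and 1924 CPM against 824.4, 983.1 and 1239 CPM, and Rrm2 425.5, 238.3 and 904.6 CPM against 272.3, 494.4 and 395.6 CPM. Replicate 2 was the lowest and replicate 3 the highest of all light zone libraries in each of the 3 genes. Mcm4 had 161.3, 147.4 and 153.2 CPM against 153.1, 168.3 and 139.3 CPM, and the highest was 1.09 times the lowest among the treated and 1.21 times among the control libraries.

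Light zone treated replicate 1 had 7 members above all 6 control libraries and 9 below (background 14.7% and 15.1%). Replicate 2, which stood apart, had 15 above and 17 below (background 27.1% and 23.5%). Replicate 3 had 15 above and 5 below (background 19.2% and 18.4%). The members' shares in replicate 1 were 13.7% and 17.6%, near the background on both sides. In replicate 3 the members' share above was larger than the background and the share below smaller. In replicate 2 the share below was larger than the background and the share above was near it. No test was made on these single libraries.

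**Figure D4:**
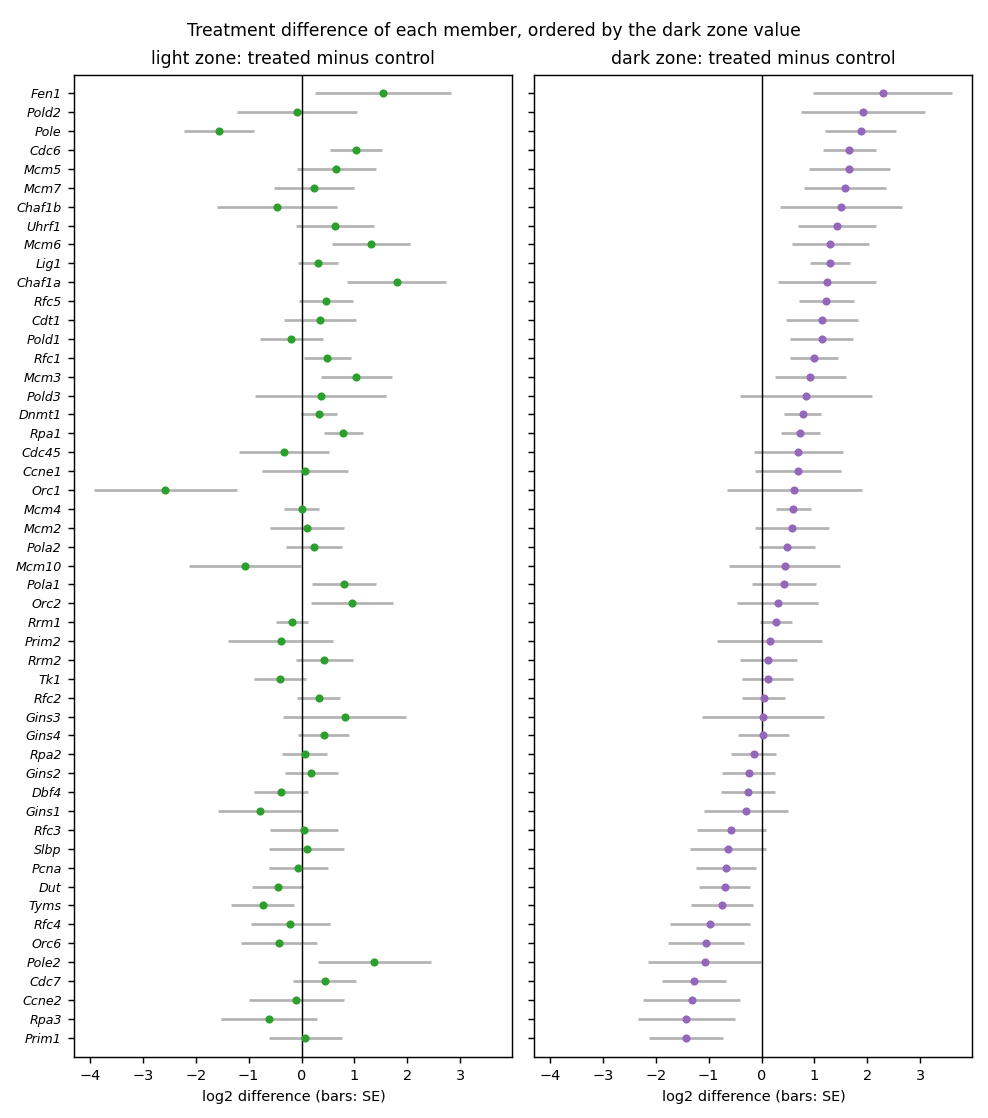
Log2 difference, treated minus control, of each of the 51 members in the light zone (left) and the dark zone (right), with SE from edgeR, ordered by the dark zone value. In the dark zone 35 members lie above 0 and 16 below, in the light zone 32 and 19, and Pole lies at 1.88 in the dark zone and -1.56 in the light zone.

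The difference between the treatment effects of the zones was tested in the same fit. By edgeR 0 of 51 members passed the adjusted threshold (background 0.0%). Unadjusted, 0 members had a larger effect in the light zone at p under 0.05 (background 1.47%) and 1, Pole, a smaller effect (background 0.811%). In a fit of the other 9 libraries, 1 had a larger effect (background 2.12%) and 2 a smaller effect (background 2.47%). The effect on Pole was 3.44 lower on the log2 scale in the light zone than in the dark zone (-3.44, SE 0.94, edgeR adjusted p = 0.9999). Orc1 followed with -3.19 (SE 1.84; -4.96 without the 3 libraries that stood apart), Lig1 with -0.99 (SE 0.53) and Pold1, the catalytic subunit of polymerase delta, with -1.33 (SE 0.84). In the other direction stood Cdc7 with 1.71 (SE 0.85), Pole2 with 2.45 (SE 1.51) and Prim1 with 1.498 (SE 0.98). Cdc7 had 83.5, 14.5 and 59.7 CPM in light zone treated libraries, against 48.1, 27.4 and 40.6 CPM in light zone control libraries. The median over the members was -0.24, and 0.15 over all tested genes.

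Averaged over both zones, Cdc6 was the member with the smallest p-value. Its log2 difference was 1.35 (SE 0.35, edgeR adjusted p = 0.222), and 5 of the 6 treated libraries were above all 6 controls. The sixth, dark zone treated replicate 3, had 39.3 CPM, below light zone control replicate 2 with 46.2 CPM. DESeq2 gave Cdc6, its single call among members, an adjusted p of 0.00518 (background 4.39%) and called 744 genes over all symbols, and limma-voom with quality weights gave it 0.0338 and called 990. With the 3 libraries that stood apart left out, the difference was 1.19, and over all leave-one-out fits it was 1.19 to 1.61. Cdc6 is also a member in which some deposited values lie midway between whole numbers.

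By edgeR 0 of 51 members passed in this averaged comparison (background 0.0%). There were 8 members higher at an unadjusted p under 0.05 (Cdc6, Lig1, Rpa1, Mcm6, Rfc1, Rfc5, Chaf1a and Dnmt1; background 10.8%) and 0 lower (background 5.88%). Lig1 had a difference of 0.80 (SE 0.27), Rpa1 of 0.76 (SE 0.26), Mcm6 of 1.31 (SE 0.52) and Rfc1, the large clamp loader subunit, of 0.74 (SE 0.32). Lig1 and Rpa1 were above all 6 controls in 5 of the 6 treated libraries. For Mcm6 the difference was 0.54, and for Rfc1 0.46, without the 3 libraries that stood apart. Without them 4 members were higher at an unadjusted p under 0.05 (background 2.62%) and 0 were lower (background 4.3%). Lower means were led by Tyms (-0.74, SE 0.42), Dut (-0.57, SE 0.34) and Rpa3 (-1.02, SE 0.64), which were at -0.09, -0.11 and -0.13 without the 3 libraries, in that order. Limma-voom called Rpa3 and Orc6 lower (background 6.25%) and Cdc6 higher (background 1.95%).

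No member lay above all 6 controls, or below them, in all 6 treated libraries. Besides Cdc6, Lig1 and Rpa1, which did so in 5, there were 7 members (of 51) above in 4 treated libraries and 2 below in 4. Over all tested genes 3.42% were above in 5, and 7.56% were above and 6.56% below in 4, while 0.811% were above and 1.01% below in all 6. Fen1 was above in 4, although its controls ran from 0.517 to 88.2 CPM. Rpa3 and Tyms were below in 4.

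The zones were compared to see how far the replication program differs between cells sorted as dark and as light. Averaged over treatments the median log2 difference of the members, light minus dark, was 0.05 with 29 higher and 22 lower, and that of all tested genes was 0.06. When the libraries that stood apart were omitted, the median of the members turned to -0.14, with 21 higher and 30 lower, and that of all genes was 0.06. By edgeR, DESeq2 and limma-voom 0 of 51 members passed (background 0.0% by edgeR). Orc2 was the single member higher in the light zone at an unadjusted p under 0.05 (background 2.37%), and 0 were lower (background 2.57%). In a fit of the other 9 libraries, 1 was higher (background 2.81%) and 2 were lower (background 4.06%).

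Genes of the later cell cycle phases were read beside the members, from a list written for that purpose. Of the 56 measured genes of G2 and M phase 17 were higher and 39 lower, with a median of -0.29, and 8 of 56 (14.3%) were lower at an unadjusted p under 0.05 (background 2.57%). Kif23, a kinesin of cytokinesis, had 58.3, 38.8 and 33.6 CPM in light zone treated and 21.7, 12.7 and 38.5 CPM in light zone control libraries, against 68.8, 85.1 and 99.5 CPM in dark zone treated and 50.2, 52.9 and 63.4 CPM in dark zone control libraries. Its averaged difference was -1.07 (SE 0.32, edgeR adjusted p = 0.991), and that of its partner Racgap1 was -1.04 (SE 0.32). Espl1, which cuts cohesin, had -1.75 (SE 0.57) and Cdc20, an activator of the anaphase-promoting complex, -1.26 (SE 0.49; -0.19 without the 3 libraries that stood apart). Without those libraries the median of the G2 and M phase genes was -0.29, and 4 of 56 (7.14%) were lower at an unadjusted p under 0.05 (background 4.06%). The 28 measured genes of a histone list had a median of -0.44 with 6 higher and 22 lower, and 1 of 28 (3.57%) was lower at an unadjusted p under 0.05. Their median was -0.15 without the 3 libraries, with 12 higher and 16 lower. The list as written also named the variants H2afx and H2afz. How fully the cDNA amplification captured histone mRNA was not tested, so these counts may say little of histone mRNA in S phase. None of these genes passed the adjusted threshold, and the lists were described and not tested against the members.

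**Figure D5:**
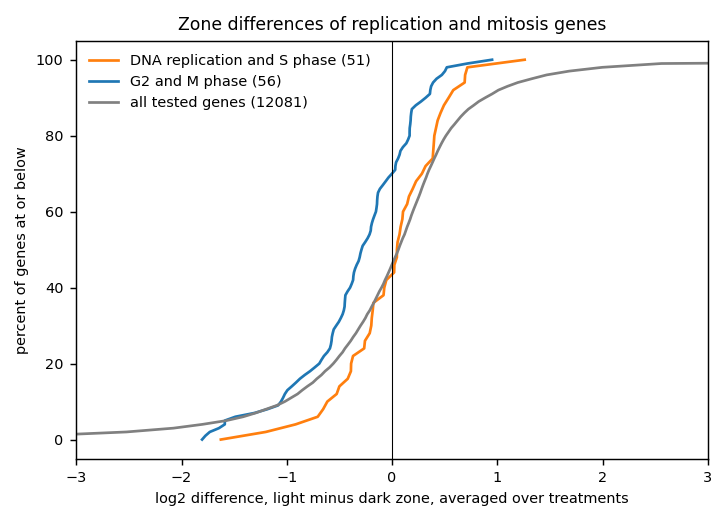
Percent of genes (y axis) at or below each log2 difference, light minus dark zone averaged over treatments (x axis, cut at -3 and 3), for the 51 members, 56 genes of G2 and M phase and all 12081 tested genes. The curve of the G2 and M phase genes lies left of that of the members, with a median of -0.29, while the members have a median of 0.05 and all genes of 0.06. It lies left of that of all genes except in the low tail, where these curves cross (-1.77 against -3.36 at 1 percent).

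In control libraries alone, the light minus dark median of the members was 0.02 with 27 higher and 24 lower, against 0.00 over all tested genes. By edgeR 0 members passed (background 0.0%). Unadjusted, 1 was higher at p under 0.05, Pole (background 1.9%), and 0 were lower (background 3.02%). Pole had 106.0, 50.4 and 20.5 CPM in light zone control libraries, against 9.73, 6.93 and 16.5 CPM in dark zone control libraries, and the groups did not overlap. Its log2 difference was 2.42 (SE 0.68, edgeR adjusted p = 1.0; DESeq2 adjusted p = 0.0253, its single call among members, background 0.281%). Light zone libraries were all above dark zone libraries in 2 members, Pole and Chaf1b of CAF-1 (background 4.47%), and all below in 0 (background 5.6%). The largest differences without separation were Gins3 at -2.02 (SE 1.20), Orc1 at 1.99 (SE 1.32) and Chaf1a at -1.48 (SE 0.93).

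Tk1, the salvage kinase for thymidine, had 150.3, 265.0 and 225.9 CPM in light zone control libraries, against 118.4, 82.7 and 167.3 CPM in dark zone control libraries (log2 difference 0.80, SE 0.49). Control replicate 1 of the light zone lay inside the dark zone range. Pcna had 997.0, 1027 and 1101 CPM against 920.2, 1153 and 864.9 CPM. Slbp had 824.4, 983.1 and 1239 CPM against 1061, 1161 and 1003 CPM. In both of these abundant members the zones overlapped in untreated mice.

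In treated libraries the light minus dark median of the members was -0.15 with 21 higher and 30 lower, against 0.05 over all tested genes. With the 3 libraries that stood apart left out, these medians were -0.26 and 0.09. By edgeR, DESeq2 and limma-voom 0 members passed (background 0.0% by edgeR). Unadjusted, 1 was higher at p under 0.05, Cdc7 (log2 difference 1.35, SE 0.60; background 1.46%), and 0 were lower (background 0.604%). When the libraries that stood apart were omitted, 0 were higher (background 2.33%) and 1 was lower (background 3.54%). Light zone libraries were all above dark zone libraries in 1 member, Orc2 (background 2.24%), and all below in 4, Mcm10, Rfc5, Pole and Lig1 (background 3.55%). Orc2, an origin recognition subunit, had 113.4, 34.8 and 47.6 CPM in light zone treated libraries, against 27.1, 27.7 and 10.6 CPM in dark zone treated libraries (log2 difference 1.58, SE 0.78; 2.95 without the 3 libraries that stood apart). Lig1 had 133.6, 149.2 and 102.5 CPM against 203.2, 236.1 and 182.5 CPM (log2 difference -0.69, SE 0.38). By role, with the 3 libraries that stood apart included, 10 of the 12 helicase members and 2 of the 5 licensing members were lower in the light zone. Of those 3 libraries 2 are in the dark zone treated group, and ring subunits such as Mcm5 were high in all 3. Their part in the count was not tested, nor was the count set against a share over all genes.

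The other lists of the pathway were read for the same comparisons. Of 44 further replication genes, the averaged treatment comparison had 3 higher (6.82%; background 10.8%) and 2 lower (4.55%; background 5.88%) at an unadjusted p under 0.05. The leading gene was Timeless, a component that protects the fork, with 0.526, 52.3 and 1.497 CPM in light zone treated and 45.9, 61.4 and 35.5 CPM in dark zone treated libraries. It had 0.654, 1.84 and 0.834 CPM in light zone control and 2.19, 0.607 and 12.4 CPM in dark zone control libraries. Timeless was thus high in the 3 libraries that stood apart and in dark zone treated replicate 3 (log2 difference 3.63, SE 1.14, edgeR adjusted p = 0.232; DESeq2 adjusted p = 0.00634), and the difference was 1.36 without the 3 libraries. Of 27 E2F and G1-S regulators 4 were higher (14.8%; background 10.8%) and 0 lower (background 5.88%), and without the 3 libraries that stood apart 1 was higher and 1 lower (3.7% each; background 2.62% and 4.3%). The regulator with the smallest p-value was Cdkn1a, an inhibitor of cyclin-dependent kinases. It had 0.117, 11.0 and 23.95 CPM in light zone treated and 15.2, 13.8 and 8.89 CPM in dark zone treated libraries, against 0, 15.7 and 8.20 CPM in light zone control libraries and 0 in all 3 dark zone control libraries (edgeR adjusted p = 0.232; DESeq2 adjusted p = 0.00541). The light zone groups overlapped, and no fold is given because the dark zone controls were at 0. E2f1 was at 1.83 (SE 0.79) and Ccnd3, a G1 cyclin, at 1.91 (SE 0.69). In a fit of the other 9 libraries, E2f1 was at -0.74 and Ccnd3 at 0.76.

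Between zones, Top1, which relaxes DNA ahead of the fork, had the smallest p-value among the further replication genes. It had 248.5, 231.6 and 194.8 CPM in light zone treated and 191.4, 208.4 and 260.7 CPM in light zone control libraries, against 532.0, 351.9 and 344.6 CPM in dark zone treated and 420.8, 394.4 and 278.4 CPM in dark zone control libraries. All 6 light zone libraries were below all 6 dark zone libraries (log2 difference -0.80, SE 0.21, edgeR adjusted p = 0.991; DESeq2 adjusted p = 0.0480). Ccnd2, a G1 cyclin, was at 2.59 (SE 0.79). Of 35 checkpoint and fork repair genes 0 were higher (background 2.37%) and 1 was lower (2.86%; background 2.57%) at an unadjusted p under 0.05.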

How the data were processed

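For each library RNA from 1000 sorted cells was amplified as cDNA (SMART-Seq v4 Ultra) and made into a Nextera XT library, per the labels' protocols. BWA and the build mm10 are named in the submitters' processing notes. The counting program and annotation were not named: not given in the sources used here. In all 12 files the authors deposited expected counts per gene symbol, unscaled. Some lie midway between whole numbers (78 of 612 member values, in 14 of 51 members), and these were rounded up, with blanks taken as 0.

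Counts were fitted with edgeR 4.0.16 (R 4.3.3; quasi-likelihood, robust, TMM, filterByExpr with minimum count 10 and total 15; 12081 genes), with all 12 libraries and a term per group. P-values are two-sided and Benjamini-Hochberg adjusted over all genes, with a threshold of 0.05, in 7 comparisons. SE is the absolute log2 difference divided by the square root of F. DESeq2 1.42.0 and limma 3.58.1 (voom with quality weights), other scalings, leaving out libraries and a replicate block were alternatives. The step was tested on simulated data. No pair of replicates agreed within sampling noise (chi-square per degree of freedom 76.8 or more).

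The members and lists were chosen with earlier results of these data known. Values in every library are given for up to 5 members per direction and comparison, by smallest unadjusted p if the higher group averaged 10 CPM or more, and for the leading member of each role; a few others (Mcm5, Fen1) were picked after their values were seen. Library totals without TMM were added as a scaling after seeing the data. Single germinal center B cell markers are not reported here.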

Additional observations from a re-analysis of the deposited data

Results flagged for a closer look

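Pole, the catalytic subunit of the leading strand polymerase, had opposite treatment differences in the 2 zones. On the log2 scale each light zone treated library was below the mean of its controls, and each dark zone treated library was above the mean of its controls. The effect in the light zone minus that in the dark zone was -3.44 on the log2 scale (SE 0.94, edgeR unadjusted p = 0.00399, adjusted p = 0.9999), so the difference did not pass when all genes were counted. It was -2.71 to -3.85 when libraries were left out in turn, -4.30 without the 3 libraries that stood apart and -3.46 by DESeq2 (adjusted p = 0.0703). Orc1 showed the same opposite directions on that scale, with -3.19 (SE 1.84, edgeR adjusted p = 0.9999), at levels of 0.155 to 49.0 CPM.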

How the results depend on the processing

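By edgeR the count of called genes stayed at 0 in all 7 comparisons when libraries were left out in turn, under each scaling and filter, and without the 3 libraries that stood apart; with a term for those libraries 2 genes passed in the averaged zone comparison. DESeq2 called 73 genes in the dark zone treatment comparison, 223 in the light zone treatment comparison, 113 between the zones in control and 1 in treated libraries, 16 for the difference of effects, 744 for treatment averaged over zones and 64 for zone averaged over treatments. Of members it called 1 between the zones in control libraries (Pole) and 1 for averaged treatment (Cdc6). Limma-voom called 3073 genes and 21 members in the dark zone treatment comparison and 990 genes and 3 members for averaged treatment. The cause of these gaps between tools was not tested.

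With library totals in place of TMM the member medians were 0.90 (dark zone treatment), 0.49 (light zone treatment), -0.40 (zones in treated libraries), -0.47 (difference of effects) and 0.54 (averaged treatment), and those of all tested genes 0.51 (dark zone treatment), 0.39 (light zone treatment), -0.13 (zones in treated libraries) and 0.49 (averaged treatment). Leaving out libraries in turn gave -0.478 to -0.0195 for the zones in treated libraries and -0.415 to 0.0213 for the difference of effects. Directions turned for Rpa3 (0.078), Orc6 (0.0477 and 0.115) and Dut (0.0979) in the dark zone treatment comparison, without the 3 libraries or with a term for them. In the light zone they turned for Chaf1a (-0.18 without the 3 libraries; -0.19 to 2.25 when libraries were left out in turn, lowest without light zone treated replicate 2) and Mcm10 (0.39 by limma-voom; -1.62 to 1.43 when libraries were left out in turn, highest without light zone control replicate 1). The difference of effects turned for Pcna (-0.083), and averaged treatment for Orc6 (0.0491 and 0.0575), E2f1 (-0.74 and -0.25) and Cdc20 (-0.16). The cause was not tested. Low counts limit members such as Orc1, which had 3 counts in light zone treated replicate 3. That library had 21995203 counts in total. Light zone control replicate 1, with 17307186 in total, had 749 counts of Orc1. The cause of the low count was not tested.

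With the replicate number as a block, the member medians were 0.62 in the dark zone and 0.02 in the light zone treatment comparison, and 0 genes passed. Of 6 pairs of libraries that share a number, 3 had deviations correlated over 0.1. Light zone treated replicate 2 correlated with dark zone treated replicate 1 (0.56) as with replicate 2 (0.539), and all 3 of these libraries stood apart. The check therefore could not settle pairing. The numbers were not read as pairing samples because the labels do not say that they do.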
